A study of Homo sapiens with 95 samples.

Results

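Benzo[a]pyrene (BaP) was compared directly with the tobacco nitrosamine NNK in AALE cells, an immortalized human bronchial epithelial line, by 3′ digital gene expression (3′DGE), which counts unique molecular identifiers (UMIs) at the 3′ ends of polyadenylated transcripts. The comparison comprised 24 of the 95 wells in the series. These were replicates 1 to 3 under each chemical in 4 cell populations, giving 12 wells treated with BaP at 173 µM and 12 treated with NNK at 490 µM. The populations were NRF2 cells, which overexpress NFE2L2, PIK3CA cells, which overexpress PIK3CA, FAT1 cells, a CRISPR knockout, and GFP cells, which received the Cas9 and EGFP plasmid without a guide and are the control of the FAT1 cells. No DMSO well entered a test, apart from 1 alternative fit over all wells with 1-digit numbers. The control population of the overexpression side, HCRED, was not among the 4. The molar doses differed, and the length of exposure, the promoters of the overexpression constructs and whether a population was 1 clone were not given in the sources used here. Every difference below is therefore one between 173 µM BaP and 490 µM NNK and not between equal doses.

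BaP is a polycyclic aromatic hydrocarbon that binds the aryl hydrocarbon receptor (AHR), a transcription factor that moves to the nucleus on ligand binding and raises the genes of xenobiotic metabolism, CYP1A1 and CYP1B1 first among them. The enzymes these genes encode oxidize BaP to epoxides, which other enzymes turn into diols, and quinones formed from BaP react with thiols. NRF2, a transcription factor held back by KEAP1, responds to such reactive compounds and raises genes for quinone reduction, thioredoxin and glutathione recycling and iron storage. NNK is activated through hydroxylation by other cytochromes P450, those of the CYP2A family among them, while carbonyl reductases turn it into an alcohol that can be conjugated and excreted, and it binds nicotinic and beta-adrenergic receptors.

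In hg19, CYP1A1 lies at chr15:75011883-75017877, minus strand, CYP1B1 at chr2:38294116-38337044, minus strand and ALDH1A3, which makes retinoic acid, at chr15:101417919-101456831, plus strand. GPX2, a glutathione peroxidase of epithelia, lies at chr14:65405870-65409464, minus strand. The 250 bases before the transcription start of 3 genes that were higher under BaP and matched a motif in a RefSeq promoter table (GRCh38.p14) are shown to give the letters that AHR and NRF2 are known to read. Capitals mark GCGTG, the core of the xenobiotic response element, in the first 2 and TGACNNNGC, the core of the antioxidant response element, in the third, each on either strand. The windows are at chr15:74725529-74725778 (minus strand), chr15:100879581-100879830 (plus strand) and chr14:64942746-64942995 (minus strand).
CYP1A1: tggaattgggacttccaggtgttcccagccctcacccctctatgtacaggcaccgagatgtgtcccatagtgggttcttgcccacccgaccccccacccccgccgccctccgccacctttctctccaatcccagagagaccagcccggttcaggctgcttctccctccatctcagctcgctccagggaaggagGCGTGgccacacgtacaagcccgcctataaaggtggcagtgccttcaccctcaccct
ALDH1A3: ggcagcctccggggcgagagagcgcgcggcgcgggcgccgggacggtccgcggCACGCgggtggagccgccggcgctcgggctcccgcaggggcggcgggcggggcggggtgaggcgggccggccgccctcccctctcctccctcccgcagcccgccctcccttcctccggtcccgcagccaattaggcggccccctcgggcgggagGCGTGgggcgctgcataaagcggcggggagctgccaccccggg
GPX2: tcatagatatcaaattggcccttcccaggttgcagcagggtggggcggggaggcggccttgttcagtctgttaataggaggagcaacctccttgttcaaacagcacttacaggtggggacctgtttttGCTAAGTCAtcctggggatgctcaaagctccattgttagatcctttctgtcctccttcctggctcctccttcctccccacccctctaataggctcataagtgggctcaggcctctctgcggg
GCGTG started 57 bases before the start of CYP1A1, and 197 (as its complement) and 43 bases before that of ALDH1A3. It occurred in 32.2% of all 35116 promoters in the table, or for 36.2% of its 27305 genes. The antioxidant core lay 122 bases before the start of GPX2, as its complement, and occurred in 10.9% of promoters, or for 13.2% of genes. Of the 6 AHR battery genes higher under BaP, 5 were in the table and 3 held GCGTG, the other one being TIPARP. Of the 12 higher NRF2 target genes, 10 were in the table and 2 held TGACNNNGC, the other one being TXNRD1. The matches are a description of letters in these windows.

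BaP wells held 940354 to 1400153 UMI counts and NNK wells 895308 to 1702220, and the mean under BaP minus that under NNK was -1565 counts (exact permutation within populations, two-sided p = 0.979). Within populations this difference was 236383 in PIK3CA, 15807 in GFP, -69541 in NRF2 and -188910 in FAT1 cells (exact permutation p = 0.1, 0.9, 0.5 and 0.2, where 3 wells against 3 cannot go below 0.1). The well barcodes held 4.75 G or C bases on average under BaP and 5 under NNK (exact permutation p = 0.4). BaP wells lay in plate rows E and F and NNK wells in rows G and H, so chemical and plate row cannot be told apart. PIK3CA and GFP cells filled rows E and G, and NRF2 and FAT1 cells rows F and H. Replicates differed by more than counting error, with a chi-square of 1.16 to 2.49 per degree of freedom over the 24 pairs. The study calls them biological replicates.

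The targeted genes were examined as a check of the labels. NFE2L2 was counted at 154, 141 and 133 CPM (counts scaled to the same library total) in the BaP wells of NRF2 cells and 144, 168 and 120.2 in the NNK wells, and no well of the other populations exceeded 74.8. PIK3CA reached 8.19, 6.18 and 7.26 under BaP and 10.2, 9.19 and 7.13 under NNK in PIK3CA cells and at most 3.17 in the NRF2, GFP and FAT1 wells of either chemical, although single CDKN2A BaP and NRG1 NNK wells outside the comparison reached 6.88 and 6.84. FAT1 was at 3.21, 0 and 0.789 and 3.92, 4.18 and 2 in FAT1 cells, below its lowest value of 4.2 in the NRF2, PIK3CA and GFP wells of either chemical, although an NRG1 BaP well outside the comparison held 3.73. The sources do not state which part of FAT1 was cut, so a 3′ count is a limited check of a knockout. None of the 3 passed the test between the chemicals. The log2 fold changes of BaP over NNK were 0.21 (SE 0.08, adjusted p = 0.186) for NFE2L2, -0.13 (SE 0.28, adjusted p = 0.895) for PIK3CA and -0.17 (SE 0.20, adjusted p = 0.793) for FAT1. Without NRF2 NNK replicate 2, NFE2L2 passed at 0.28 (adjusted p = 0.0315). All 13 airway epithelial markers passed the count filter, against 2 of 10 fibroblast, 1 of 7 endothelial, 3 of 9 leukocyte and 1 of 9 ciliated and secretory markers, and the summed level in any BaP or NNK well was at most 12.9, 5.32, 36.5 and 6.52 CPM for these 4 lists in turn.

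Across the 24 wells, 6 of 13 AHR battery genes and 12 of 30 NRF2 target genes were higher under BaP, while 18 of 28 genes of sterol and fatty acid synthesis and 4 of 26 of glycolysis and hypoxia were lower. With population as a covariate, limma-voom called 365 of 11095 genes at an adjusted p under 0.05, or 3.29%. Of these, 112 were higher under BaP (1.01% of genes) and 253 were lower (2.28%). Most differences were small: the median size of a called log2 fold change was 0.26, 85 genes differed by more than 0.5, 15 by more than 1 and only CYP1A1 and CYP1B1 by more than 2. The median over all genes was 0.01. In 16 genes (0.144%) every BaP well lay above every NNK well inside each population, and in 36 (0.324%) every BaP well lay below. DESeq2 called 398 genes with 71 of them higher, 17.8% against 30.7% in the main comparison. Rows E and G alone, with PIK3CA and GFP cells, gave 98 genes, and rows F and H, with NRF2 and FAT1 cells, gave 267. Among the 24 wells, those of rows E and G held 895308 to 1397605 UMI counts and those of rows F and H 1229711 to 1702220.

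CYP1A1 and CYP1B1, the cytochromes P450 that oxidize polycyclic hydrocarbons, showed the largest differences, of 5.73-fold and 4.58-fold. In GFP cells, CYP1A1 was at 48.3, 47.6 and 33.2 CPM under BaP and 9.69, 9.45 and 14.7 under NNK, while the DMSO wells held 1.66, 0.808 and 2.15. In FAT1 cells the BaP wells rose to 98.6, 90.1 and 93.9 CPM, against 7.05, 7.52 and 7.98 under NNK. In PIK3CA cells the values were 14.9, 10.8 and 18.5 under BaP and 8.19, 9.19 and 7.13 under NNK. The wells of the 2 chemicals thus did not overlap inside any population, although the PIK3CA wells were close together. NRF2 cells held 46.7, 66.1 and 75.8 CPM under BaP and 8.62, 11.4 and 12 under NNK. The log2 fold change was 2.52 (SE 0.18, adjusted p = 2.99e-16).

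CYP1B1 also had its highest BaP wells in FAT1 cells and its lowest in PIK3CA cells. Its BaP wells held 118, 115 and 122 CPM in FAT1 cells, 70.0, 83.5 and 82.5 in GFP cells, 73.6, 76.2 and 56.2 in NRF2 cells and 33.5, 33.2 and 48.4 in PIK3CA cells. Its NNK wells ranged from 10.0 to 27.3 CPM, median 14.7, and the 12 DMSO wells had a median of 6.1. The log2 fold change of BaP over NNK was 2.19 (SE 0.16, adjusted p = 1.23e-16). NNK wells stood above the DMSO median for both genes, but DMSO wells lay in other rows, carried barcodes with 1 G or C base and were sequenced more deeply, so values beside DMSO are a description with no test.

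**Figure D1:**
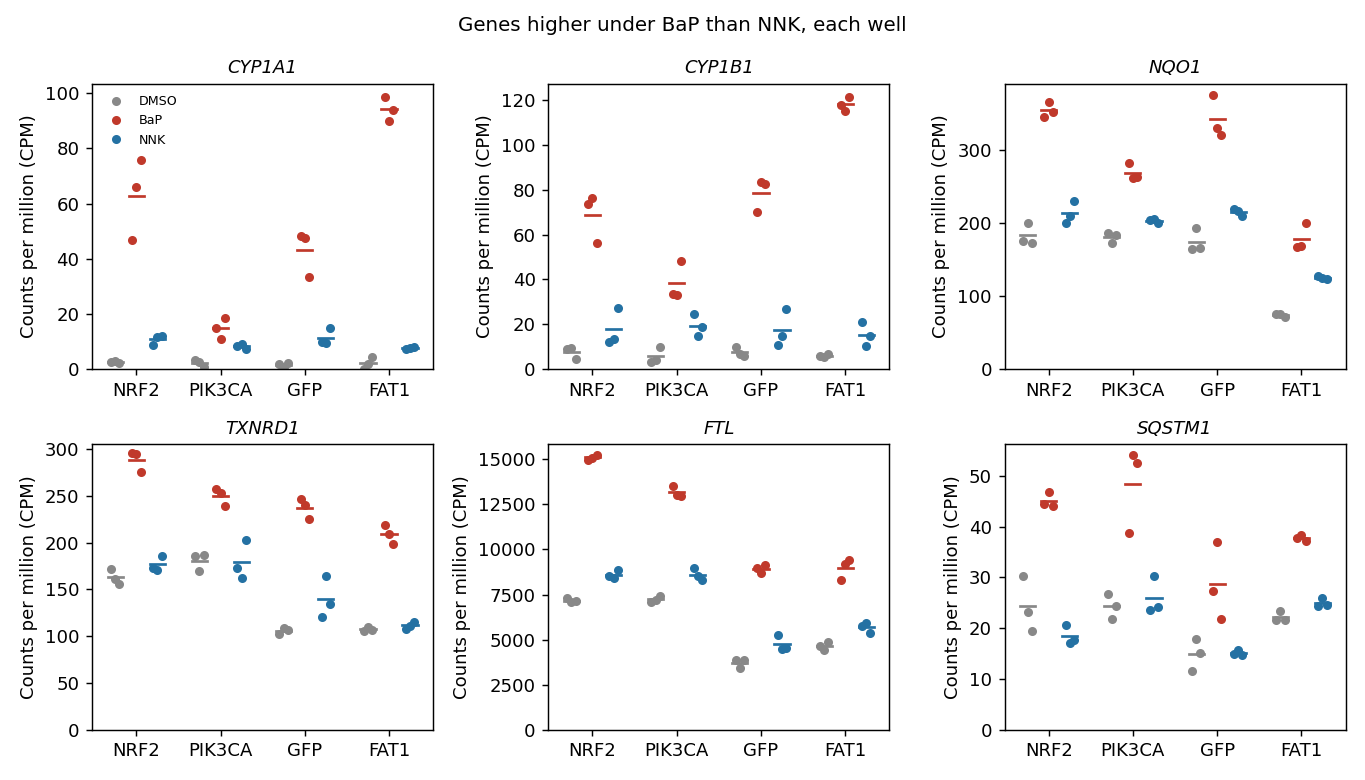
CPM of 6 genes higher under BaP in each well (points) with the group mean of 3 wells (bars), for DMSO, BaP and NNK in NRF2, PIK3CA, GFP and FAT1 cells. BaP wells lie above NNK wells inside every population, and CYP1A1 under BaP runs from 10.8 to 18.5 in PIK3CA cells and from 90.1 to 98.6 in FAT1 cells.

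Of 13 measured AHR battery genes, 6 were higher under BaP, none was lower and 7 did not pass, with a median log2 fold change of 0.59 (all genes 0.01, 3.29% called). NQO1, the quinone reductase shared with the NRF2 battery (chr16:69740899-69760571, minus strand), was at 168 to 376 CPM, median 301 under BaP and 123 to 231 CPM, median 205 under NNK. It did not overlap inside any population and differed by 0.59 (SE 0.05, adjusted p = 7.70e-15). TIPARP, an ADP-ribosyltransferase that restrains AHR, differed by 0.92 (SE 0.13, adjusted p = 2.68e-07) but its wells were apart only in NRF2 and FAT1 cells. ALDH1A3 differed by 0.84 (SE 0.13, adjusted p = 3.26e-06) with wells apart in all 4 populations. SERPINB2, a plasminogen activator inhibitor counted at a median of only 9.9 and 3.32 CPM, differed by 0.76 (SE 0.21, adjusted p = 0.0266). AHR itself, its partner ARNT and CYP1A2 were among the 7 that did not pass, CYP1A2 at a median of 0.799 CPM under BaP.

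Of 30 measured NRF2 target genes, 12 were higher and 2 lower under BaP, 16 did not pass, and the median log2 fold change was 0.30. The iron storage chains led the list. FTL, the ferritin light chain (chr19:49468566-49470136, plus strand), was at 14985, 15089 and 15242 CPM in the BaP wells of NRF2 cells and 8539.9, 8391 and 8848 in the NNK wells. In GFP cells it was at 8991, 8712 and 9120.5 under BaP and 5251, 4456 and 4519.6 under NNK. The gap was many times the spread between wells, with 0.74 (SE 0.02, adjusted p = 6.11e-35) as the log2 fold change, and NNK wells were above DMSO wells in median (7111 against 5961). FTH1, the ferritin heavy chain, was at 379.6 to 827 CPM, median 599 under BaP and 239 to 508 CPM, median 393 under NNK, a difference of 0.63 (SE 0.04, adjusted p = 2.20e-20), but here the median in DMSO wells (455) lay above that of NNK wells. Both ferritin genes have near-identical processed copies in the genome, so their levels are uncertain.

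The enzymes of thiol and quinone handling followed. TXNRD1, thioredoxin reductase, was at 199 to 295 CPM, median 243 under BaP and 108 to 202 CPM, median 163 under NNK and differed by 0.71 (SE 0.05, adjusted p = 6.13e-16). PIR, an iron-binding nuclear protein, differed by 0.57 (SE 0.06, adjusted p = 9.35e-10). GPX2 (1.06, SE 0.13), SRXN1, which repairs oxidized peroxiredoxins (0.80, SE 0.15), and GCLC, the catalytic subunit for glutathione synthesis (0.85, SE 0.17), had larger differences at low counts, with BaP medians between 17.3 and 26.9 CPM. The abundant TXN and PRDX1 differed least, by 0.16 (SE 0.02) and 0.12 (SE 0.02). Of the aldo-keto reductases, AKR1C3 differed by 0.68 (SE 0.11, adjusted p = 6.24e-06) and AKR1C2 by 0.86 (SE 0.19, adjusted p = 0.00262), while AKR1C1, a close copy of AKR1C2 whose reads may be shared with it, gave 0.57 (SE 0.24, adjusted p = 0.241) and passed over all 8 populations (0.63, adjusted p = 0.0187). PGD, of the pentose phosphate pathway, and CBR1, a carbonyl reductase, were lower under BaP at -0.23 (SE 0.05) and -0.20 (SE 0.06). GCLM, SLC7A11 and ME1 were among those that did not pass.

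Among genes outside these lists, SQSTM1, an autophagy receptor that binds KEAP1, was at 21.8 to 54 CPM, median 38.5 under BaP and 14.7 to 30.3 CPM, median 22.1 under NNK, a difference of 0.90 (SE 0.10, adjusted p = 5.16e-09). FXYD3, a regulator of the sodium pump, and S100A6, a calcium-binding protein, differed by 0.29 (SE 0.03) and 0.17 (SE 0.02). These were small differences in abundant transcripts, with every BaP well above every NNK well of its population in both.

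Sterol and fatty acid synthesis genes were lower under BaP: 18 of 28 measured members fell against NNK, none was higher, 10 did not pass, and 27 of 28 had a negative log2 fold change, with a median of -0.43. FDPS, which makes farnesyl diphosphate (chr1:155278539-155290457, plus strand), was at 487, 412 and 478 CPM under BaP and 711, 671 and 790.2 under NNK in GFP cells. In FAT1 cells it was at 297, 308 and 313 and 452, 484 and 505. The wells were apart in all 4 populations, and the difference was -0.54 (SE 0.04, adjusted p = 7.36e-17). The later enzymes MSMO1 (-0.59, SE 0.05, adjusted p = 2.20e-13), EBP (-0.52, SE 0.05, adjusted p = 3.02e-13) and C14orf1 (-0.58, SE 0.04, adjusted p = 3.40e-16), the ERG28 scaffold of sterol demethylation, also had no overlap inside any population. C14orf1 was not on the list. The summed level of the list was 2081 to 4285 CPM under BaP, median 3277, and 3690 to 5443 under NNK, median 4583, while the median of DMSO wells was 3158. In 17 of the 18 genes the NNK median was above the DMSO median, and in 16 the BaP median was the nearer of the pair to DMSO. Among all 253 lower genes the NNK median was above DMSO in 220 and the BaP median nearer in 154. An NNK median above DMSO was thus common to lower genes at large. The regulators SREBF1 and SREBF2 and the fatty acid enzymes FASN, ACACA, FADS1 and FADS2 were among the 10 listed genes that did not pass, although ACLY and SCD did.

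**Figure D2:**
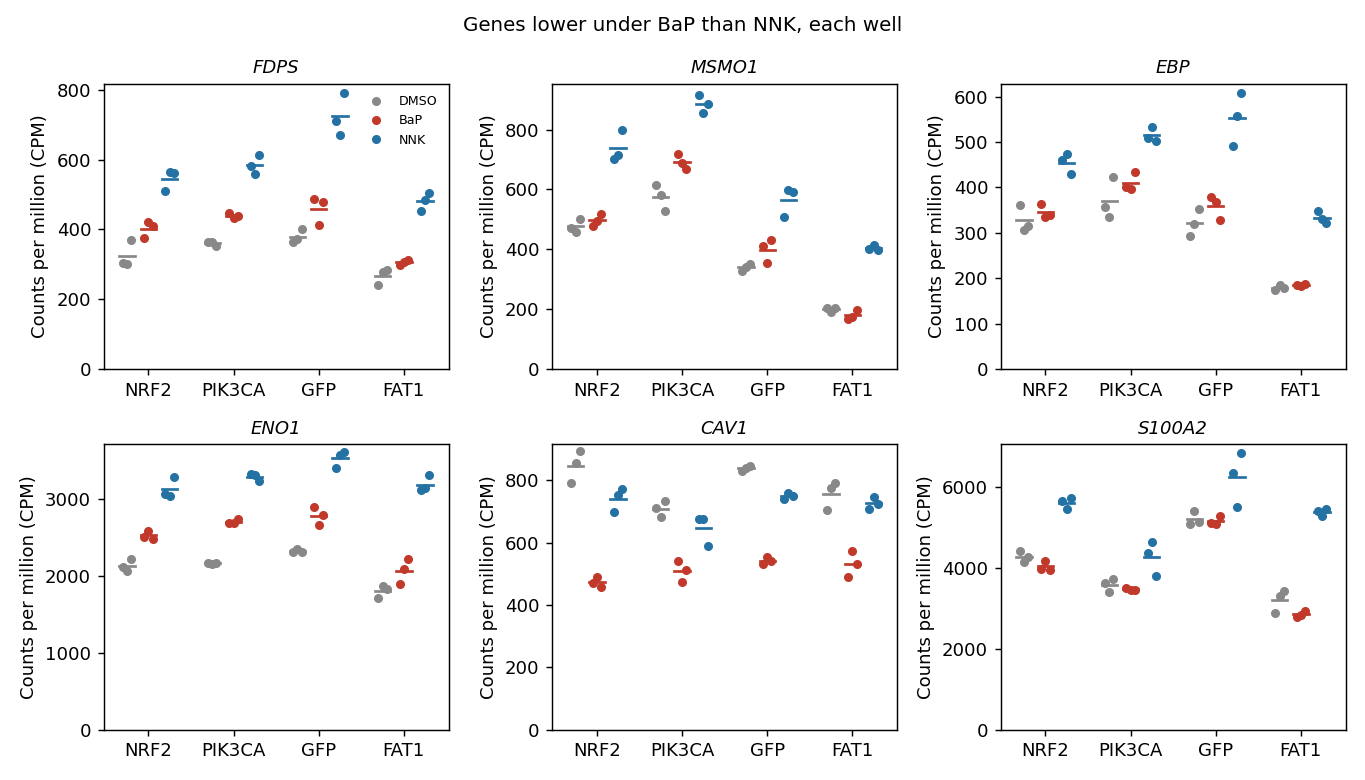
CPM of 6 genes lower under BaP in each well (points) with the group mean of 3 wells (bars), for DMSO, BaP and NNK. FDPS, MSMO1, EBP and ENO1 were highest in the NNK wells of every population, whereas CAV1 was lowest in the BaP wells; in FAT1 cells S100A2 was 2802 to 2927 under BaP and 5301 to 5477 under NNK.

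Of 26 measured glycolysis and hypoxia genes, 4 were lower under BaP and none higher, all of them enzymes of glycolysis. ENO1, enolase, was at 1896 to 2897 CPM, median 2622 under BaP and 3038 to 3611 CPM, median 3293 under NNK, so that the lowest NNK well exceeded the highest BaP well across populations. It differed by -0.38 (SE 0.03, adjusted p = 3.74e-17) and had a DMSO median of 2158. PGK1, TPI1 and LDHA differed by -0.34 (SE 0.03), -0.33 (SE 0.03) and -0.23 (SE 0.03), with wells apart in all 4 populations. The other 22, among them HK2, SLC2A1, GAPDH and VEGFA, did not pass, and the median of the list was -0.07. GAPDH and several others have many near-identical copies.

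Of the 13 airway epithelial markers, 3 were lower under BaP (S100A2, KRT14 and KRT5), none was higher and 10 did not pass, CDH1, EPCAM, TP63, DSP and KRT17 among them, with a median of -0.10. S100A2, a calcium-binding protein of basal cells, was at 2802 to 5304 CPM, median 3736 under BaP and 3815 to 6864 CPM, median 5475 under NNK. It was 1.40-fold lower under BaP than under NNK (-0.48, SE 0.04, adjusted p = 1.81e-14 on the log2 scale). Its means under BaP, NNK and DMSO were 5176, 6247 and 5221 CPM in GFP and 3481, 4277 and 3589 in PIK3CA cells. They were 4045, 5626 and 4287 in NRF2 and 2858, 5400 and 3214 in FAT1 cells. The NNK mean was thus above DMSO in all 4 populations and the BaP mean nearer to DMSO, a description with no test. CAV1, the main protein of caveolae and on no list, was at 456 to 574 CPM, median 521 and 589.5 to 771 CPM, median 732 and differed by -0.48 (SE 0.04, adjusted p = 4.52e-16), with a DMSO median of 792 above both. TUBB, a beta tubulin and likewise on no list, differed by -0.30 (SE 0.03). Of 10 keratins, 4 were lower and none higher (median -0.17): KRT19 at -0.34 (SE 0.05), KRT14 at -0.67 (SE 0.12), KRT5 at -0.18 (SE 0.05) and KRT6A at -0.21 (SE 0.06). The summed level of the 13 markers was 3437 to 6043 CPM under BaP and 4371 to 7870 under NNK, most of it S100A2. In wells measured whole, fewer cells with a transcript and less of it per cell cannot be told apart. The part of epithelial identity in the other results was not tested.

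In other lists fewer members passed, against 3.29% over all genes, and shares near that level are not results about a list. The share was 4.76% of the immediate early, 5.88% of the squamous, 7.41% of the matrix and 7.69% of the ATF4 genes. It was 11.1% of the ERBB and EGFR ligands, 12.5% of the heat shock and 13.3% of the cell cycle genes. Of the 30 cell cycle genes 5 had a positive log2 fold change. Of 30 cell cycle genes, CCNB1, MCM7, CCNB2 and AURKA were lower, with log2 fold changes from -0.35 to -0.16, and none was higher. Of 26 ATF4 and endoplasmic reticulum stress genes, DDIT3, the CHOP transcription factor, differed by 0.68 (SE 0.09, adjusted p = 1.64e-07) with wells apart in all 4 populations and NUPR1 by 0.42 (SE 0.11, adjusted p = 0.0209). DNAJB1 and HSP90AA1 of the 16 heat shock genes passed in opposite directions, at 0.45 (SE 0.13) and -0.15 (SE 0.03). KLF4 (1.17, SE 0.29) was the 1 call among 21 immediate early and ERK feedback genes, EREG (0.79, SE 0.22) among 9 ERBB and EGFR ligands and SPRR1B (-0.74, SE 0.20) among 17 squamous genes. TGFBI was higher (0.29, SE 0.06) and TIMP1 lower (-0.14, SE 0.03) among 27 extracellular matrix genes.

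Of 62 called genes followed through every alternative, 31 passed in all of them and 10 did not pass when a single well was left out, the ribosomal gene RPS21 and those that follow. The SPRR1B call ended without NRF2 BaP replicate 3 or NRF2 NNK replicate 2 (adjusted p up to 0.0741), and the NUPR1 call without GFP BaP replicate 1 or 3 or GFP NNK replicate 3 (up to 0.128). That of KRT6A ended without GFP BaP replicate 3, NRF2 BaP replicate 2 or 3, GFP NNK replicate 3 or NRF2 NNK replicate 1 (up to 0.121). That of KRT5 ended without replicate 3 of the NRF2 BaP or FAT1 BaP wells, GFP NNK replicate 1 or 3 or NRF2 NNK replicate 1 or 2 (up to 0.0812). SERPINB2 needed replicate 3 of the PIK3CA BaP, NRF2 BaP, GFP NNK and NRF2 NNK wells and replicate 2 of the GFP BaP and PIK3CA NNK wells (up to 0.0753). CBR1 needed PIK3CA BaP replicate 1, GFP BaP replicate 3, replicate 2 of the NRF2 BaP, FAT1 BaP and PIK3CA NNK wells, GFP NNK replicate 3 and NRF2 NNK replicate 1 (up to 0.112). EREG needed replicates 1 and 3 of the PIK3CA BaP and of the PIK3CA NNK wells, GFP BaP replicate 1, NRF2 BaP replicate 3 and FAT1 NNK replicate 2 (up to 0.103). DNAJB1 needed 11 of the 24 wells, namely replicate 2 of the PIK3CA BaP and GFP BaP wells, NRF2 BaP replicate 3, FAT1 BaP replicates 1 and 2, PIK3CA NNK replicates 2 and 3, GFP NNK replicate 3, NRF2 NNK replicate 1 and FAT1 NNK replicates 1 and 3 (up to 0.138). GSTM3 needed replicate 3 of the NRF2 BaP, FAT1 BaP, NRF2 NNK and FAT1 NNK wells (up to 0.1002). Rows E and G alone, with 12 wells, ended 27 of the 62 calls, among them TIPARP (0.43, adjusted p = 0.315), TGFBI (0.13, adjusted p = 0.738), AKR1C2, GCLC, SRXN1, PGD, PRDX1, KLF4, KRT19 and MCM7, and rows F and H alone ended 11. The ribosomal gene RPL18, not counted in the 27, changed sign in rows E and G, to 0.080. Over all 8 populations 13 ended, among them CCNB1, CCNB2, AURKA, HSP90AA1 and TIMP1. That fit kept NRG1 NNK replicate 2, a well that stood apart, and was not repeated without it. The EREG call also ended by edgeR (adjusted p = 0.0584).

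No member passed in the lists most tied to DNA damage. Of 22 p53 target genes none passed, with a median log2 fold change of 0.14 and 16 positive values, CDKN1A at 0.10 (SE 0.12, adjusted p = 0.81) and MDM2 at 0.29 (SE 0.10, adjusted p = 0.116). AALE cells carry SV40 large T antigen, which binds p53. Of 33 DNA adduct repair and damage tolerance genes none passed (median 0.02), and none of 8 metallothioneins (median 0.0049) or 12 inflammatory mediators (median 0.28) did. With 3.29% of all genes called by limma-voom, lists of these sizes can hold no call at the background share. At an unadjusted p under 0.05 there were 3 p53 target genes (13.6%), 3 repair genes (9.09%), 4 inflammatory mediators (33.3%) and no metallothionein, against 1559 of 11095 genes (14.1%). Under every setting tried, edgeR and DESeq2 included, the p53, repair and metallothionein lists had no call, while up to 2 inflammatory mediators passed.

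The enzymes that act on each chemical were unequally measured. Of 30 listed genes of BaP activation and clearance, 20 were tested and 6 were higher: CYP1B1, CYP1A1, NQO1, AKR1C3, AKR1C2 and GSTM3, a glutathione transferase at 0.17 (SE 0.04). Of 21 listed genes of NNK activation and clearance, 7 passed the count filter, and 11, CYP2A6 among them, had no count in the 24 wells. AKR1C2 was higher and CBR1 lower, and MGMT, which removes methyl groups from guanine, did not pass. Only 3 of 16 nicotinic and beta-adrenergic receptor genes were tested, and none passed.

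**Figure D3:**
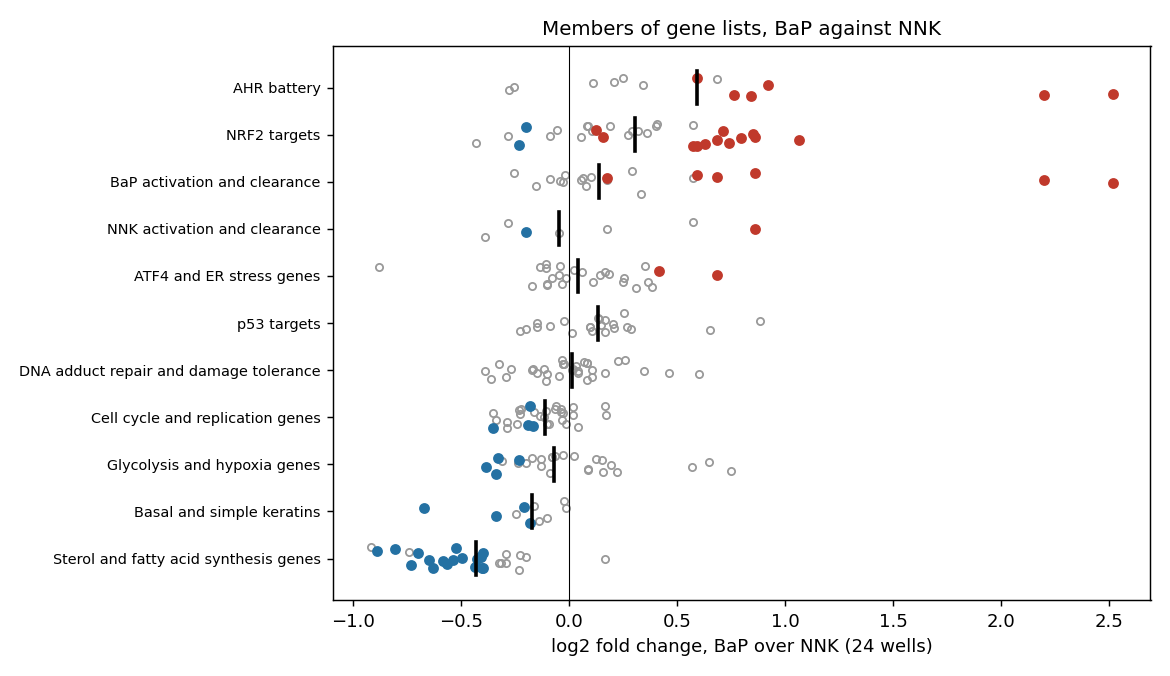
Log2 fold change of BaP over NNK in the 24 wells for each measured member of 11 gene lists. Filled red points were higher and filled blue points lower at an adjusted p under 0.05, open points did not pass, and black bars mark medians; the sterol list centres on -0.43 and the AHR list on 0.59.

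Inside single populations, with 3 wells a side, FAT1 cells gave the most calls. The counts of GFP and PIK3CA cells were close, and their order turned by DESeq2, at 23 and 43. FAT1 cells gave 217 of 10980 genes (1.98%), 56 higher (0.51%) and 161 lower (1.47%), and NRF2 cells gave 98 of 11045 (0.887%), 26 higher (0.235%) and 72 lower (0.652%). GFP cells gave 52 of 10542 (0.493%), 28 higher (0.266%) and 24 lower (0.228%), and PIK3CA cells 48 of 10809 (0.444%), 13 higher (0.12%) and 35 lower (0.324%). The GFP count became 34 without BaP replicate 1, 101 without NNK replicate 1 and 25 without NNK replicate 3. The PIK3CA count became 27 without BaP replicate 2 and 23, 31 and 74 without NNK replicates 1, 2 and 3. The NRF2 count became 61 without NNK replicate 1 and the FAT1 count 139 without NNK replicate 3. In FAT1 cells 14 sterol genes were lower, against 9 in GFP, 7 in NRF2 and 7 in PIK3CA cells. Depth went with population, as NRF2 and FAT1 wells held 1229711 to 1702220 UMI counts and PIK3CA and GFP wells 895308 to 1397605. The part of depth in the number of calls was not tested. Calls in 1 population and not in another do not show that they differ, so the difference itself was tested.

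The BaP-NNK difference varied over the 4 populations for 16 of 11095 genes (0.144%, moderated F statistic; 703 at an unadjusted p under 0.05). CYP1A1 and CYP1B1 were among them. The log2 fold change of CYP1A1 was 0.74 (SE 0.33) in PIK3CA, 1.91 (SE 0.28) in GFP, 2.48 (SE 0.26) in NRF2 and 3.60 (SE 0.26) in FAT1 cells (adjusted p of the variation = 4.27e-04), and it did not pass within PIK3CA cells (adjusted p = 0.59). CYP1B1 kept the same ends, at 0.94 (SE 0.23) in PIK3CA and 3.00 (SE 0.21) in FAT1 cells (adjusted p = 0.00659). FTL varied within a narrower span, from 0.57 (SE 0.02) in PIK3CA to 0.93 (SE 0.04) in GFP cells. For S100A2 the FAT1 cells stood out at -0.90 (SE 0.03), beyond -0.48 (SE 0.03) in NRF2, -0.33 (SE 0.04) in PIK3CA and -0.26 (SE 0.04) in GFP cells. The count of 16 became 32 without FAT1 BaP replicate 3, 58 without GFP NNK replicate 1 and 30 without NRF2 NNK replicate 2.

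FAT1 cells were then compared with GFP cells, their labelled control. The difference between BaP and NNK differed between them for 12 genes (0.108%; 782 at an unadjusted p under 0.05), 2 (0.018%) with the larger and 10 (0.0901%) with the smaller BaP over NNK value in FAT1 cells. Among the 5 with the smallest adjusted p, 3 belong to sterol synthesis: MSMO1, FDFT1, which makes squalene, and IDI1, which isomerizes isopentenyl diphosphate. In FAT1 cells MSMO1 was at 166, 173 and 197 CPM under BaP and 403, 413 and 397 under NNK, and in GFP cells at 411, 353 and 431 and 507, 597 and 592. FDFT1 was at 337, 315 and 341 and 591, 627 and 644 in FAT1 cells, against 632, 562 and 687 and 767, 722 and 817 in GFP cells. Both genes were lower in FAT1 than in GFP cells under each chemical, and the gap was wider under BaP. The FAT1 minus GFP difference in log2 fold change was -0.68 (SE 0.12, adjusted p = 9.29e-04) for MSMO1, -0.61 (SE 0.10, adjusted p = 7.65e-04) for FDFT1 and -0.65 (SE 0.11, adjusted p = 9.29e-04) for IDI1. The other 2 genes were S100A2 at -0.64 (SE 0.06, adjusted p = 6.75e-12) and ENO1 at -0.29 (SE 0.06, adjusted p = 0.00674). The ENO1 call ended by edgeR (adjusted p = 0.369) and DESeq2 (0.0725), and that of IDI1 with no filter on low counts (0.116). CYP1A1, at 1.69 (SE 0.39, adjusted p = 0.056), did not pass this test. It did by edgeR (0.0253), with replicate numbers as a block, and in the leave-one-well-out fits without NRF2 BaP replicate 1 or 3, FAT1 BaP replicate 3, GFP NNK replicate 1 or NRF2 NNK replicate 2 (down to 0.0237). Without another single well its adjusted p rose as high as 0.401. The count of 12 became 69 without GFP NNK replicate 1, 41 without FAT1 BaP replicate 3, 28 without NRF2 NNK replicate 2 and 20 without NRF2 BaP replicate 3 or NRF2 NNK replicate 3. It became 7 without GFP BaP replicate 1, GFP NNK replicate 3 or PIK3CA BaP replicate 3, and 5 without GFP BaP replicate 3.

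**Figure D4:**
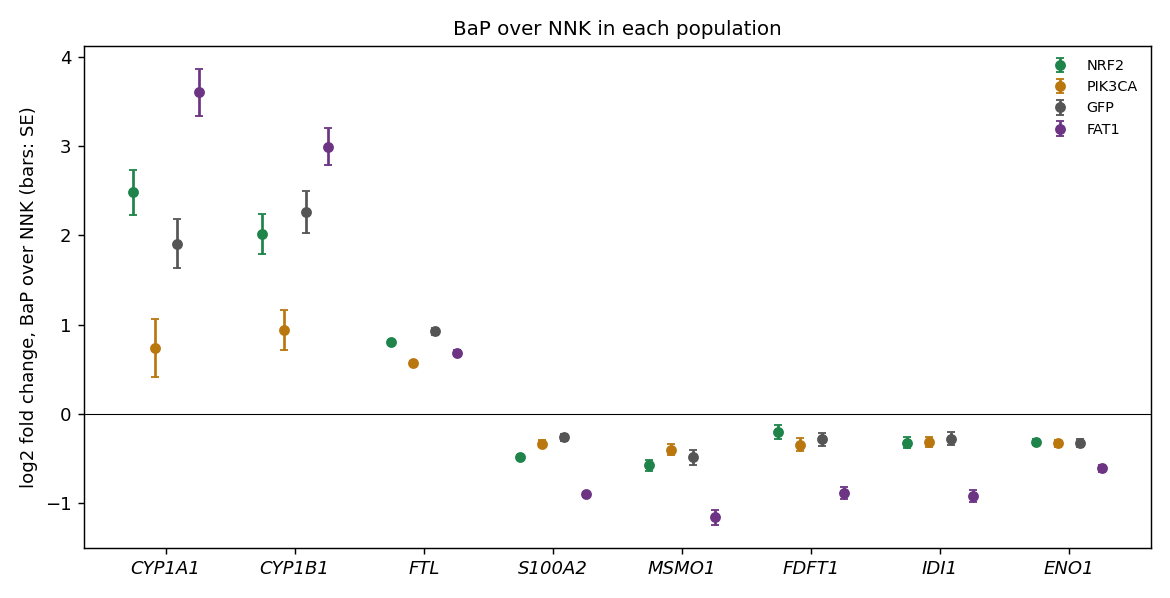
Log2 fold change of BaP over NNK (points) with its standard error (bars) in each population, 3 wells a side, for 8 genes whose difference varied over populations. PIK3CA cells have the smallest and FAT1 cells the largest difference for CYP1A1 and CYP1B1, and FAT1 cells the most negative for S100A2, MSMO1, FDFT1, IDI1 and ENO1.

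The wells of the other 4 populations, HCRED, FGFR1, NRG1 and CDKN2A, took no part in the comparison above and were used to examine the same differences. Their BaP wells also lay in plate rows E and F and their NNK wells in rows G and H. Chemical and plate row cannot be told apart in these populations either. Of their 23 wells under BaP or NNK, those whose numbers shared a first digit were summed. They gave 31 of 11467 genes (0.27%), 14 higher (0.122%) and 17 lower (0.148%), and 147 without NRG1 NNK replicate 2, a well that stood apart. With all wells, 99 of the 112 higher genes and 183 of the 252 lower genes that were tested kept their direction, 13 and 16 passed again, and none passed in the opposite direction. Without that well, 107 of 112 (95.5%) and 246 of 252 (97.6%) kept it, 27 and 85 passed, and again none passed in the opposite direction. Of all genes measured in both sets, 53.6% were higher under BaP with all wells and 50.1% without that well. Without that well the median log2 fold change was 0.225 for the higher and -0.16 for the lower genes, against 0.50 and -0.22 in the 24 wells. With all wells the medians were 0.20 and -0.07. The genes were chosen by passing in the 24 wells, a choice that favours larger values there. The smaller medians are therefore not read as a difference between the sets of populations.

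The leading genes were among those that passed again without that well. CYP1A1 differed by 1.76 (SE 0.18, adjusted p = 2.39e-11), CYP1B1 by 1.53 (SE 0.10, adjusted p = 2.12e-19) and FTL by 0.62 (SE 0.02, adjusted p = 1.64e-34). FDPS differed by -0.58 (SE 0.05, adjusted p = 1.17e-15) and S100A2 by -0.43 (SE 0.03, adjusted p = 1.21e-17). FXYD3 did not pass there, at 0.11 (SE 0.04, adjusted p = 0.221). In the same populations with all wells, 10 of 27 sterol genes were lower and none higher, 4 of 13 AHR battery genes were higher and 5 of 29 NRF2 target genes were higher. The keratin, glycolysis and cell cycle lists had no call there with all wells. These list counts keep NRG1 NNK replicate 2, unlike the values of the leading genes. Without that well the lower calls over all genes rose from 17 to 105, and these lists were not counted again.

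**Figure D5:**
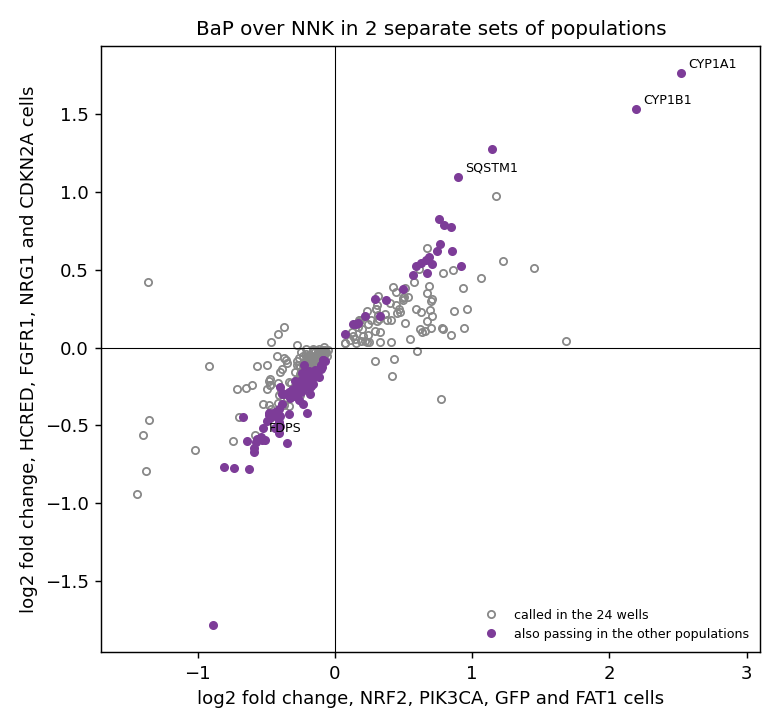
Log2 fold change of BaP over NNK for the genes called in the 24 wells (x axis) against that in HCRED, FGFR1, NRG1 and CDKN2A cells without NRG1 NNK replicate 2 (y axis). Filled points passed in both sets; 107 of the 112 higher and 246 of the 252 lower genes lie on the same side of 0 in both.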

How the data were processed

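RNA of AALE cells was profiled by 3′DGE (SCRB-seq) in a plate with a barcode for each well. The deposited values are raw UMI counts per gene symbol, not normalized. Per the study's methods the authors obtained these counts already quantified: reads were aligned to RefSeq transcripts of hg19 with BWA aln 0.7.10 (seed length 24), and a UMI was counted once per gene and well. Reads shared by near-identical copies make such genes uncertain.

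Groups, replicate numbers and rows came from the labels. Genes with a mean count above 1 in the wells fitted were tested in R 4.3.3 with limma 3.58.1 (voom) and TMM factors from edgeR 4.0.16, population as a covariate, two-sided, with Benjamini-Hochberg adjustment over all genes tested and a threshold of 0.05. A log2 fold change is BaP over NNK. Single-population fits used 3 wells a side. Differences between populations were tested with a moderated F statistic or an interaction contrast. Variances are shared between genes (prior degrees of freedom 36.4 in the 24 wells), so very small p-values rest on that shared estimate. CPM are counts scaled to a common library total with TMM factors over all 95 wells. Total counts of 895308 to 1702220 per well set the precision.

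Same-numbered wells of the 2 chemicals had correlated deviations of -0.016 to 0.015, so replicate numbers were not used to pair wells. Correlations over genes down to a mean count of 1 cannot exclude a pairing. Alternatives included edgeR's quasi-likelihood test, DESeq2 1.42.0, other filters and size factors, added covariates, plate rows taken apart and each well left out. Wells with 2-digit numbers, not stated to be separate cultures, were summed by first digit.

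The wells, gene lists and comparisons were chosen with earlier results of these data known. Named are the 3 targeted genes, up to 10 genes a direction with the smallest adjusted p among called genes without overlap inside each population, up to 4 called members of each of 24 lists and all called AHR battery genes, up to 3 genes a direction for each population, and up to 5 for each test between populations. Others named with values were chosen after their values were seen. Some members of the lists are counted but not reported here by name. Of 23895 symbols, 22394 had a position in GENCODE for hg19. Scripts were tested on simulated counts.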

Additional observations from a re-analysis of the deposited data

Results flagged for a closer look

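The difference between BaP and NNK varied over the 4 populations in 16 genes and differed between FAT1 and GFP cells in 12, each by a test of the difference itself. Among the named genes the adjusted p of the variation was 6.68e-12 for S100A2, 6.68e-12 for RPL18, 2.39e-06 for FTL, 4.1e-05 for HIST1H4C, 4.1e-05 for MSMO1, 4.66e-05 for FDFT1, 0.000427 for each of CYP1A1, ENO1 and IDI1, and 0.00659 for CYP1B1. The FAT1 minus GFP difference in log2 fold change was -0.64 for S100A2, -0.68 for MSMO1, -0.61 for FDFT1, -0.65 for IDI1, -0.29 for ENO1, -0.24 for FTL and 0.38 for HIST1H4C, a replication-dependent histone gene. The FTL call ended by edgeR, by DESeq2, with no filter and without GFP BaP replicate 3 or GFP NNK replicate 2 or 3, and that of HIST1H4C by these tools, with no filter, with median-ratio factors and without any of 18 of the 24 wells (adjusted p up to 0.57 for both).

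RPL18, a protein of the large ribosomal subunit, was among the 16. In NRF2 cells it was at 1719.9, 1846 and 1344 CPM under NNK, 293, 329 and 328 under BaP and 301, 339 and 317 under DMSO. Single wells of other groups were also high, since the BaP wells of GFP cells held 412, 777 and 351 and the NNK wells of FAT1 cells 829.6, 487 and 369.8. In PIK3CA cells the values were 285, 394 and 318 under BaP and 314, 349 and 336 under NNK. Reads of ribosomal protein genes can be shared with near-identical copies, and their part in these levels was not tested.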

How the results depend on the processing

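Of 2733 alternative values of single genes, 2551 kept their direction and side of the threshold, and of 201 counts of genes and depth differences 157 stayed within 1.5 times the main count or, for depth, kept their sign. The 24-well count was 365, and it was 371 by edgeR, 274 with no filter on low counts, 258 over the 10000 most variable genes, 328 with barcode G and C bases and 383 with UMI total as a covariate. One fit over all wells with 1-digit numbers, those under DMSO among them, gave 197, rows E and G alone 98, and leaving out 1 well 312 to 439. DESeq2 gave 51 genes in NRF2, 43 in PIK3CA, 23 in GFP and 121 in FAT1 cells. The other populations gave 19 without the 2-digit wells. The variation over populations was called for 26 genes by edgeR and 10 with no filter, and FAT1 against GFP for 5 by DESeq2 and 7 with no filter. The replicate block, which the correlations did not call for, gave 378 genes over the 24 wells, 124 in PIK3CA cells, 32 for the variation and 27 for FAT1 against GFP, and it is not read as pairing. Without 1 well the counts ran from 61 to 102 in NRF2, 23 to 74 in PIK3CA, 25 to 101 in GFP, 139 to 204 in FAT1 and 24 to 147 in the other populations, from 11 to 58 for the variation and from 5 to 69 for FAT1 against GFP. The UMI total under BaP minus NNK was 236383 within PIK3CA and 15807 within GFP cells, against -69541 within NRF2 and -188910 within FAT1 cells, and ran from -34516 to 38840 without 1 well. Of the named log2 fold changes, PIK3CA turned to 0.41 in rows F and H and 0.025 over all 8 populations, RPL18 to 0.080 in rows E and G and CDKN1A to -0.0041 there. Of the 62 calls of single genes, 27 ended in rows E and G, 11 in rows F and H, 14 in one fit over all wells with 1-digit numbers, 13 over all 8 populations, 7 with no filter, 6 with barcode bases as a covariate, 2 by DESeq2 (RPL18 and RPS21), and 1 each by edgeR, with UMI total as a covariate, with the replicate block (EREG each time) and over the 10000 most variable genes (KRT6A). RPL18, whose sign changed in rows E and G, is not counted in the 27. The cause of these changes was not tested. Wells of 3 a side and these depths limit single populations to large or abundant differences.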

Other observations

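The lists below were assembled after values were seen and carry no test of their own. Of 33 interferon-stimulated genes, which answer viral RNA and interferon, 28 were tested in the 24 wells, 25 had a positive log2 fold change of BaP over NNK and 4 passed, IFIT3, IFI27, IFIT2 and IFI44, all higher under BaP, where 1.01% of all genes were. The median over the 28 was 0.32, against 0.01 over all genes. IFIT3 was at 4.23 to 75.1 CPM under BaP and 7.21 to 44.7 under NNK, a difference of 0.66 (SE 0.11, adjusted p = 2.06e-05). IFI27 differed by 0.78 (SE 0.14, adjusted p = 1.12e-04). In the other 4 populations 1 of the 28 passed, and the median was 0.18. Over all alternatives the number that passed ran from 0 to 6, and none of the 4 passed in rows E and G alone.

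Of 82 cytosolic ribosomal protein genes, 30 were lower under BaP, 1, RPS21, was higher and 51 did not pass, with a median of -0.05, where 2.28% of all genes were lower. The RPS21 call ended by DESeq2 and without FAT1 BaP replicate 3 or FAT1 NNK replicate 1 or 3 (adjusted p up to 0.166). The number of lower calls ran from 2 to 43 over the alternatives. In the other populations 75 of the 82 had a positive value with all wells and 31 without NRG1 NNK replicate 2, and 0 and 4 were lower past the threshold.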
